A study of Mus musculus with 38 samples.

Results

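Pre-plasmablasts cultured with GSK343 were compared with pre-plasmablasts cultured with its solvent DMSO, across all expressed genes. The 4 RNA libraries, 2 with DMSO and 2 with GSK343, were chosen by their treatment labels out of 38 samples of a study of the transcription factor Blimp1 in plasma cell formation. Genes were kept at 1 RPKM or more in at least 2 of these 4 libraries (RPKM, reads scaled to transcript length and to the size of the library), which left 9479 of the 20650 uniquely named genes. GSK343 is a small-molecule inhibitor of the methyltransferase EZH2. Neither its dose nor the hours of exposure could be read from the labels.

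All 4 libraries came from C57BL/6 mice of genotype Blimp1(GFP/+), in which 1 allele of Prdm1, the gene for Blimp1, carries GFP. The DMSO controls therefore also have a single unmodified Prdm1 allele. B cells were stimulated with LPS (lipopolysaccharide) for 4 days, and CD138- GFP+ cells were sorted by flow cytometry, so every library was gated for Prdm1 reporter expression and against the plasma cell surface protein CD138, encoded by Sdc1. Whether both libraries of a treatment come from separate mice or cultures is not labelled, so the p-values measure the spread between these libraries, which may be technical. The replicate numbers used below were given in deposit order and pair no libraries.

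EZH2 is the main catalytic subunit of Polycomb repressive complex 2 (PRC2), which places the repressive mark H3K27me3 on histone H3. Polycomb repressive complex 1 (PRC1) contains CBX subunits that bind this mark, and the complexes together keep developmental and cell-type-inappropriate genes silent. In B cells EZH2 is abundant during proliferation in the germinal centre, and plasma cell formation is accompanied by secretory expansion under the unfolded protein response. H3K27me3 was not analysed here, so none of the genes below is shown to be a direct PRC2 target in these cells.

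The libraries correlated at 0.998 within a treatment and at 0.993 to 0.994 between treatments on the log2 scale. Relative sequencing depth, recovered from the value that 1 read adds, ranged from 0.832 to 1.01 with DMSO replicate 1 set to 1. GSK343 replicate 2 stood apart at the low end: 5430 genes were at 0 in it, against 6724 to 6989 in the others, although it was the shallowest. It had 3054 genes above 0 but below 0.1 RPKM, against 2202 to 2382.

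The B cell markers fixed for checking the cell label were present in every library, and none of 8 was called changed. Cd79a, a subunit of the B cell receptor, was at 972 and 960 RPKM with DMSO and at 984 and 787 with GSK343. Most T cell, myeloid, and natural killer or dendritic cell markers did not reach the expression filter (12 of 15, 13 of 16 and 11 of 14), and Cd3e, a defining T cell gene, was at 0 in all 4 libraries. The 3 tested T cell markers were all called: Cd2 fell from 48.4 and 50.9 RPKM to 35.6 and 30.2, while Lef1 (0.71) and Lat (0.68) were higher. Lat lost its call without GSK343 replicate 1 (0.64). Of the natural killer and dendritic list, Flt3 was called lower, from 17.4 and 18.7 to 13.7 and 13.2 RPKM, and Prf1 higher, from 0.934 and 0.749 to 3.74 and 2.60 RPKM. The call of Flt3 was lost without DMSO replicate 2 (-0.34), GSK343 replicate 1 (-0.42) or GSK343 replicate 2 (-0.37). The summed myeloid marker level was 5.98 and 6.91 RPKM with DMSO and 19.4 and 21.1 with GSK343. Fcer1g made up most of that difference, Cd14 (0.308 and 0.423 RPKM with DMSO) was the other marker called higher, and the 13 untested myeloid markers stayed at or below 0.518 RPKM. Red cell and platelet markers summed to 12.3 and 16.0 RPKM with DMSO and to 22.4 and 33.7 with GSK343, mainly Car2 and haemoglobin RNA. Cd14 and Prf1 passed the filter only through the GSK343 libraries, so their calls support no direction. The part of other cell types in the results below was not tested.

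With GSK343, 1208 genes were called higher and 555 lower (limma on log2(RPKM + 1), Benjamini-Hochberg adjusted p below 0.05 over the 9479 genes). These are 12.7% and 5.86% of the genes tested, 18.6% together. Every called gene had both GSK343 libraries on 1 side of both DMSO libraries. Most differences were modest: the median rise was 0.60 and the median fall -0.43 on the log2(RPKM + 1) scale, which understates the change of low genes. By a second rule, a difference of 2-fold or more without overlap of the libraries, 216 genes (2.28%) were higher and 21 (0.222%) lower. In bulk RNA, fewer cells of a type and less RNA per cell cannot be told apart.

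By DMSO level, rises were concentrated among weakly expressed genes and falls among abundant ones. The DMSO values also enter the difference, so level and difference are not independent. Of 2600 genes with a DMSO mean of 1 to 5 RPKM, 14.9% were called higher and 2.12% lower, whereas of 941 genes at 100 RPKM or more, 5.42% were higher and 14.7% lower. A further 217 genes were below 1 RPKM in both DMSO libraries and so passed the filter only through the GSK343 libraries. The 150 of them called higher are not counted as support for any direction. In the same way, 39 genes were below 1 RPKM in both GSK343 libraries and passed the filter only through the DMSO libraries. The 18 of them called lower are not counted as support either. Median-of-ratios scaling, which moved the median of all genes from 0.02 to -0.04, gave 1054 higher and 855 lower, so that 55.2% of calls were rises instead of 68.5%. Without GSK343 replicate 1 the calls fell to 914, and without GSK343 replicate 2 to 876. No called gene changed direction in any of these settings.

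**Figure D1:**
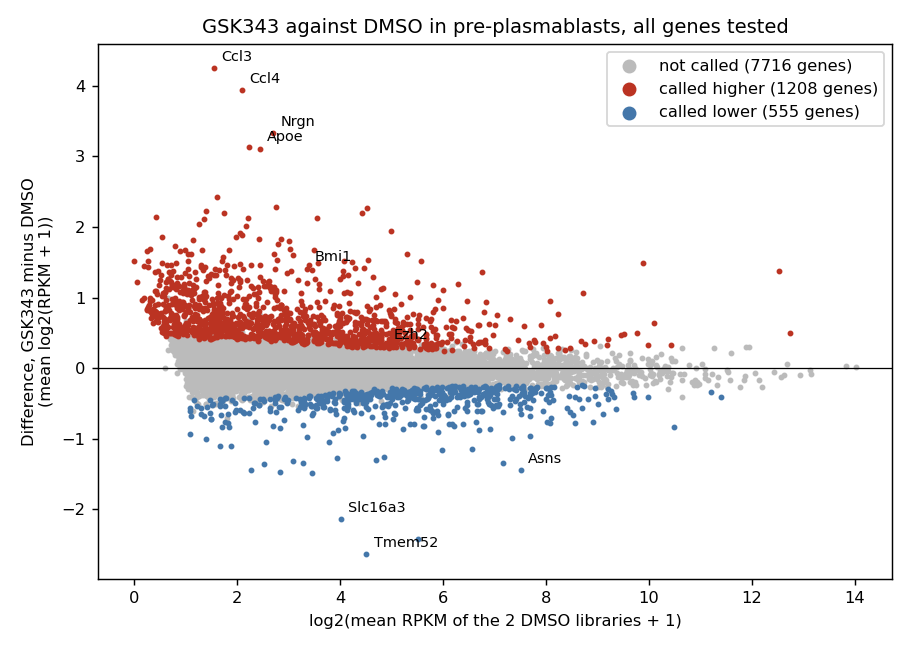
Difference between the means of the 2 GSK343 and 2 DMSO libraries on the log2(RPKM + 1) scale (vertical axis) against log2 of the DMSO mean plus 1 (horizontal axis), 1 point a gene, coloured by call. The 1208 genes called higher lie mostly at low DMSO levels, with Ccl3 and Ccl4 at the top, and the 555 called lower extend to abundant genes such as Asns.

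The genes of the inhibited machinery were described first. Ezh2 RNA was at 25.5 and 32.2 RPKM with DMSO and at 36.7 and 35.0 with GSK343, a difference of 0.31 ± 0.11 (SE) that was not called (adjusted p = 0.0773), although the libraries did not overlap. Without DMSO replicate 2 it was called higher, at 0.47. Ezh1, the alternative catalytic subunit, was lower in level and was called higher, from 5.65 and 5.50 to 8.77 and 8.11 RPKM (0.52 ± 0.12, adjusted p = 0.0105). That call was lost without GSK343 replicate 1 (0.47). The scaffold subunits Eed (-0.06) and Suz12 (-0.05) were not called. In all, 1 of 6 PRC2 core genes was called higher and none lower, where 12.7% and 5.86% of all genes were. None of 9 tested genes for H3K27 demethylases and activating methyltransferases was called, where 18.6% of all genes were. The demethylase gene Kdm6b stayed between 0.389 and 0.596 RPKM in all 4 libraries.

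PRC1 genes were called in both directions. Bmi1, a core PRC1 subunit also known as Pcgf4, rose from 9.81 and 8.80 RPKM to 27.5 and 25.2 (1.41 ± 0.10, adjusted p = 1.03e-05). Its relative Pcgf5 rose from 12.2 and 10.6 to 19.1 and 20.6 RPKM, and Cbx6, a CBX subunit, from 6.18 and 6.23 to 10.9 and 10.2 RPKM. Another CBX gene, Cbx8, was called lower, at -0.52, but the call was lost without GSK343 replicate 2 (-0.34). In all, 5 of 21 tested PRC1 genes were called higher, where 12.7% of all genes were. The count of PRC1 genes called higher was 3 without DMSO replicate 2 or GSK343 replicate 1. The median difference of the list was 0.18 against 0.02 over all genes.

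Genes known as silent Polycomb targets in many tissues were near 0 with and without the inhibitor. Of 94 developmental regulators present in the files, 89 did not reach the filter, and the highest value among those in any library was 0.284 RPKM. Of 39 Hox genes, 38 did not reach it, with a highest value of 0.423 RPKM. More of the untested developmental regulators were above 0 in GSK343 replicate 2 (53) than in GSK343 replicate 1 (26) or the DMSO libraries (28 and 36), the same library that had fewest genes at 0 overall.

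Of the 5 developmental regulators that reached the filter, 2 were called higher, where 12.7% of all genes were. Sox4, a transcription factor of early lymphocyte development, rose from 2.70 and 2.97 RPKM to 10.3 and 8.76 (1.45 ± 0.13, adjusted p = 3.68e-05). Zfpm1, a GATA cofactor, was called higher at 0.79 ± 0.18, with GSK343 values of 19.2 and 11.9 RPKM that differ widely, and the call was lost without GSK343 replicate 1 (0.47). Wnt16 rose from 0.322 and 0.325 to 2.69 and 2.16 RPKM, passing the filter only with GSK343, and Wnt10a rose from 41.6 and 35.3 to 67.9 and 60.6 RPKM. These 2 were among 3 Wnt ligand genes tested of 19, too few to set against the 12.7% of all genes called higher. The imprinted gene Dlk1, a Notch-family ligand, rose from 0.984 and 0.497 to 4.97 and 4.51 RPKM, again through the GSK343 libraries alone. Efnb1, the only 1 of 22 ephrin and Eph receptor genes tested, rose from 1.55 and 1.83 to 5.89 and 5.44 RPKM (1.31 ± 0.13).

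The largest rises were of 2 neighbouring chemokine genes. Ccl3 was at 1.36 and 2.51 RPKM with DMSO and at 54.3 and 52.9 with GSK343, 27.7 times higher by the ratio of means (4.25 ± 0.16, adjusted p = 1.01e-07). Ccl4 went from 3.59 and 3.01 to 58.5 and 71.8 RPKM (3.94 ± 0.12, adjusted p = 3.82e-08). Both encode chemokines that attract T cells and myeloid cells. They are paralogs of like sequence, so the split of reads between them is uncertain. Ccl5, which lies next to Ccl3 among the genes tested, rose less, from 2.88 and 2.54 to 9.71 and 6.57 RPKM (1.28 ± 0.16).

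Next in size came genes of membrane, signalling and lipid function. Nrgn, which encodes the calmodulin-binding protein neurogranin, rose from 6.04 and 4.96 RPKM to 64.4 and 63.6 (3.33 ± 0.11). Dusp9, a MAP kinase phosphatase, rose from 3.32 and 4.05 to 38.1 and 41.9 RPKM (3.13 ± 0.12). Apoe, the lipid carrier apolipoprotein E, rose from 5.26 and 3.61 to 50.4 and 40.8 RPKM (3.11 ± 0.15). Sodium pump components were among these genes too: Fxyd6, a pump regulator, rose from 2.09 and 2.06 to 15.2 and 16.0 RPKM, and Atp1b1, the pump's beta subunit, from 12.5 and 9.07 to 55.2 and 45.1 RPKM.

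The other leading rises covered adhesion, metabolism and receptors. Itgb7, the beta 7 chain of gut-homing integrins, rose from 1.57 and 1.55 RPKM to 10.4 and 9.69 (2.11 ± 0.12). Actn1, an actin crosslinker, was at 0.327 and 0.361 RPKM with DMSO and at 5.43 and 4.45 with GSK343. Fcer1g, the signalling chain shared by Fc receptors, rose from 2.09 and 2.60 to 13.7 and 14.8 RPKM, and Thbd, thrombomodulin, from 4.40 and 2.92 to 19.3 and 18.9 RPKM. Cdo1, which oxidizes cysteine, Ndrg1, and the adjacent pair Tmem176a and Tmem176b rose by 2.29, 2.22, 2.27 and 2.20. Actn1 passed the filter only through the GSK343 libraries. The 15 genes were picked for the size of their rises among called genes, so the gap between their libraries is a description.

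**Figure D2:**
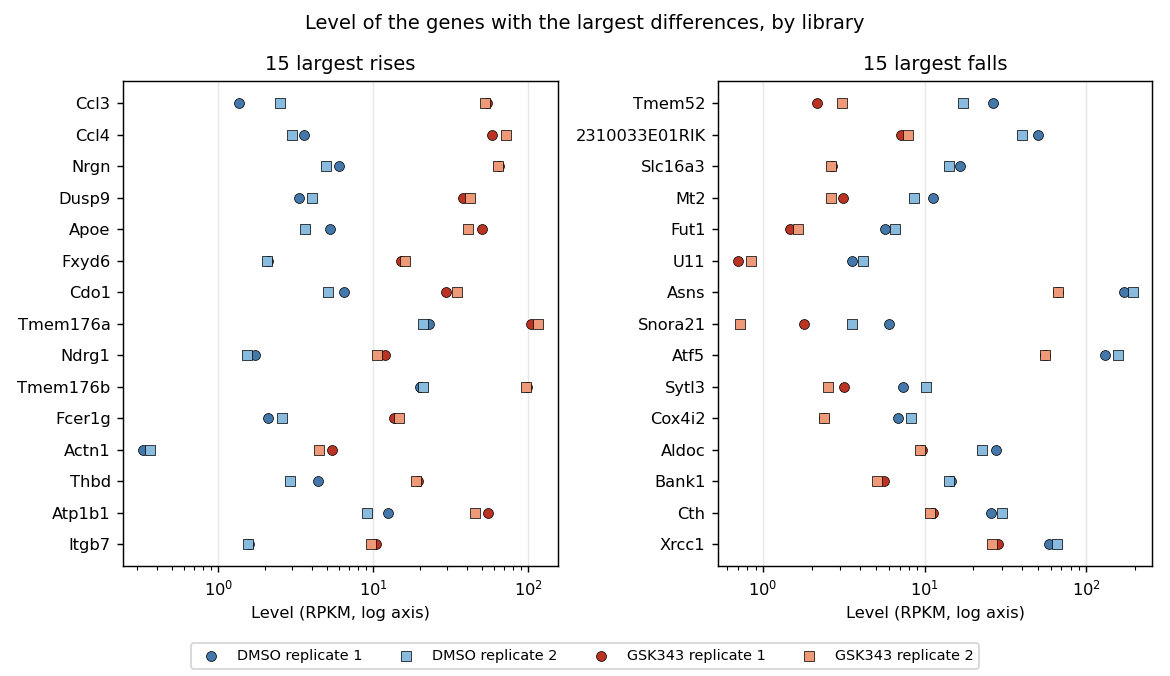
Level in RPKM (horizontal log axis) of the 15 genes with the largest rises (left) and the 15 with the largest falls (right), 1 point a library: circles replicate 1, squares replicate 2, blue DMSO, red GSK343. The DMSO and GSK343 points of a gene never overlap, and Ccl3 shows the widest gap, from 1.36 and 2.51 to 54.3 and 52.9.

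On the log2(RPKM + 1) scale, 21 genes fell by 2-fold or more, a count that leaves out low genes such as Fcer2a (1.64 and 1.97 RPKM, then 0.744 and 0.656), since adding 1 shrinks their change. Tmem52 fell from 26.5 and 17.2 RPKM to 2.16 and 3.08 (-2.64 ± 0.19, adjusted p = 7.58e-06). Slc16a3, the lactate exporter MCT4, fell from 16.4 and 14.0 to 2.68 and 2.65 RPKM (-2.14 ± 0.12). The glycolytic enzyme gene Aldoc fell from 27.7 and 22.6 to 9.67 and 9.35 RPKM, and Cox4i2, an alternative subunit of cytochrome c oxidase, from 6.82 and 8.17 to 2.40 and 2.40 RPKM. The metallothionein genes Mt2 and Mt1, which lie side by side, fell by 1.48 and 0.90.

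Bank1, a B cell scaffold protein that restrains CD40 signalling, fell from 14.4 and 14.1 RPKM to 5.63 and 5.09 (-1.27 ± 0.11). Xrcc1, a scaffold of single-strand break repair, fell from 58.5 and 65.4 to 28.4 and 26.2 RPKM, and an uncharacterized RIKEN gene beside it fell from 50.4 and 39.7 to 7.16 and 7.92 RPKM. The labels do not say whether counting kept strands apart, so reads of overlapping transcripts could be shared. The short RNAs U11 and Snora21 were also among the 15 largest falls (-1.45 and -1.36), but libraries of poly(A) RNA are not made to measure such RNAs. U11 also passed the filter only through the DMSO libraries.

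ATF4 is the transcription factor that raises amino acid synthesis, amino acid uptake and tRNA charging under stress. The list fixed for its known targets and for amino acid supply was lower almost throughout. Whether these genes depend on ATF4 in these cells was not tested. Of 23 members tested, 20 were called lower and none higher, where 5.86% of all genes were called lower. That share was 9.75% of genes at 20 to 100 RPKM with DMSO and 14.7% of those at 100 RPKM or more. All 23 differences were below 0, with a median of -0.58 against 0.02 over all genes. Between 19 and 20 members were called lower in the alternative settings that kept all libraries, 18 without GSK343 replicate 1 and 16 without GSK343 replicate 2.

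Asparagine synthetase, Asns, fell most, from 171 and 193 RPKM to 66.3 and 66.6 (-1.44 ± 0.08, adjusted p = 2.19e-06). Cth, which makes cysteine from cystathionine, fell from 25.7 and 30.1 to 11.3 and 10.8 RPKM (-1.26 ± 0.11). The glutathione-degrading enzyme gene Chac1 fell from 112 and 128 to 63.2 and 67.8 RPKM, and Trib3, a pseudokinase that feeds back on ATF4, from 32 and 40.4 to 18.6 and 20.3 RPKM. In the serine and one-carbon route, Psat1 fell from 355 and 395 to 222 and 215 RPKM and Shmt2 from 356 and 378 to 232 and 232 RPKM, with Phgdh, Psph and Mthfd2 also lower. The 2 chains of the CD98 amino acid transporter moved together: Slc7a5 went from 254 and 287 to 154 and 162 RPKM and Slc3a2 from 482 and 476 to 266 and 296 RPKM.

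The tRNA synthetase genes Gars, Nars and Sars fell by 0.66, 0.60 and 0.44. Atf4 RNA itself fell from 625 and 680 RPKM to 424 and 448 (-0.58 ± 0.08). Atf5, a related factor outside the fixed list, fell from 130 and 156 to 55.8 and 55.1 RPKM (-1.35 ± 0.09). The 3 members not called were the proline synthesis gene Pycr1, the synthetase gene Wars and the glutamine transporter gene Slc1a5, at -0.12 to -0.05.

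**Figure D3:**
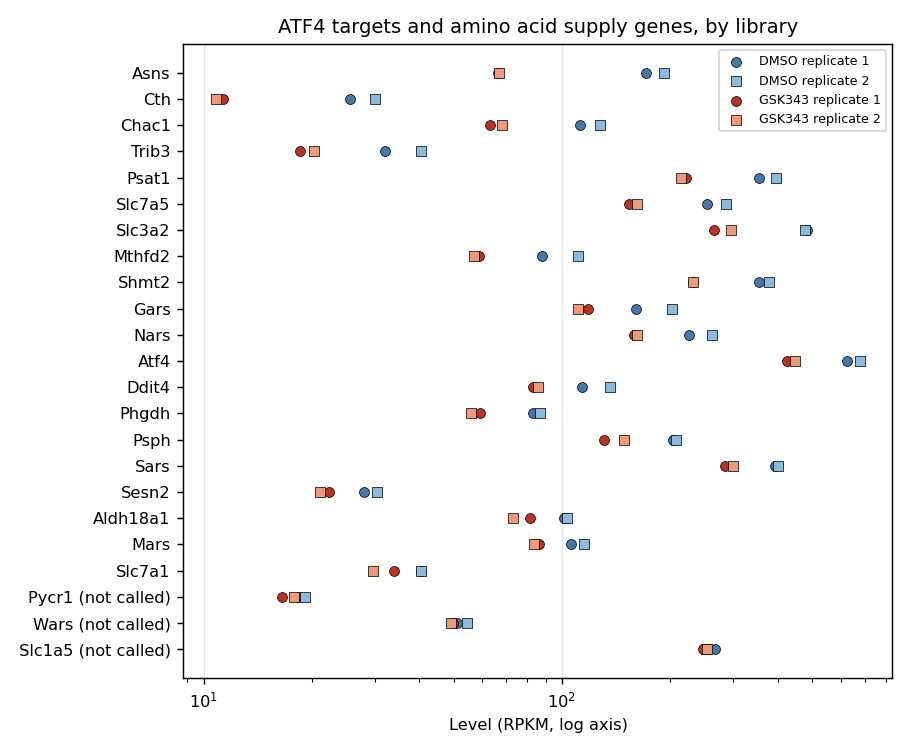
Level in RPKM (horizontal log axis) of the 23 tested genes of ATF4 targets and amino acid supply, ordered from the largest fall at the top, 1 point a library: circles replicate 1, squares replicate 2, blue DMSO, red GSK343. In the 20 called genes both GSK343 points lie left of both DMSO points, from Asns (66.3 and 66.6 against 171 and 193) down to the smallest called fall, -0.33.

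The promoters of 4 of these genes are shown because ATF4 acts with C/EBP proteins at a short element whose core is TGATGNAA. That core was searched on both strands, from 250 bases before to 50 bases after the start listed by RefSeq (build GRCm38.p6, not the mm9 build named in the submitters' notes). It was present in 3.97% of all 32851 promoters, in 2.69% of the tested genes that had a promoter sequence, and in 5 of 18 such genes of the ATF4 list. These were 4 of the 17 called lower and the 1 that was not called. Positions count from the start, the element in capitals runs as the gene does in Asns and on the opposite strand in the other three, and a match is a description, not evidence of binding. For Asns (chr6:7693210-7693459, minus strand, element at -23 to -16), Chac1 (chr2:119350992-119351241, plus strand, -193 to -186) and Gars (chr6:55037751-55038000, plus strand, -30 to -23) the 250 bases before the start are given. For Trib3 only 30 bases around the match are given (chr2:152344028-152344057, minus strand, element at 15 to 22 after the start).
Asns: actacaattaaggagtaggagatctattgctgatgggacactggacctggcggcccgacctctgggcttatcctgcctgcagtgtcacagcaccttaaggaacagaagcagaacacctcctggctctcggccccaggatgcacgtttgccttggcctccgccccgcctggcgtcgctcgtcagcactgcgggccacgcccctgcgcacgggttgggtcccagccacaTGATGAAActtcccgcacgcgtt
Chac1: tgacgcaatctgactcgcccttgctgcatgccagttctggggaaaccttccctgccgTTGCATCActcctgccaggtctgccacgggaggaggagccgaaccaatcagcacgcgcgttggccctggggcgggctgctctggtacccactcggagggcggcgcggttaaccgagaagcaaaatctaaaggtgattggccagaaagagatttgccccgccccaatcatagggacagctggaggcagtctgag
Gars: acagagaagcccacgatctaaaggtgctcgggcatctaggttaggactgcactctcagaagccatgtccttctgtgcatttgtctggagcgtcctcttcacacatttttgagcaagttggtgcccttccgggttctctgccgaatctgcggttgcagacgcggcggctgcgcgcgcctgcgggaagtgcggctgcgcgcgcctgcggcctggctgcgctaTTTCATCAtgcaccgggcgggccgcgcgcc
Trib3: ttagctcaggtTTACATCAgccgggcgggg

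Genes for entry into the endoplasmic reticulum and for vesicle transport, which carry antibody toward secretion, included small falls. Of 51 tested, 12 were called lower and none higher, with a median of -0.21. Over all genes 5.86% were called lower, but 9.75% of those at 20 to 100 RPKM with DMSO and 14.7% of those at 100 RPKM or more. Kdelr2, a receptor that returns escaped chaperones, fell from 276 and 282 RPKM to 202 and 207 (-0.45 ± 0.07, adjusted p = 0.00183). The count rested on both GSK343 libraries: it was 2 without GSK343 replicate 1 and 1 without GSK343 replicate 2, and 22 with median-of-ratios scaling. Of 35 genes of the unfolded protein response and protein folding, 4 were called lower and none higher, or 1 lower with either GSK343 library left out and 7 without DMSO replicate 2. Ero1lb, an oxidase for disulfide bonds, fell from 142 and 119 to 89.4 and 88.2 RPKM. Neither the chaperone gene Hspa5 (1132 and 1129 RPKM, then 1261 and 1266) nor Xbp1, the driver of this response (2092 and 1943, then 1673 and 1786), was called, and the stress gene Ddit3 differed by -0.15 ± 0.08.

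Of the plasma cell regulators and secreted products given here, Irf4 and Slpi were called lower, and Prdm1 and Igj were not called. Prdm1 was at 108 and 106 RPKM with DMSO and at 107 and 83.4 with GSK343 and was not called (-0.19 ± 0.11, adjusted p = 0.269). Irf4, the factor that works with Blimp1 to start plasma cell formation, fell from 188 and 173 to 135 and 119 RPKM (-0.51 ± 0.09, adjusted p = 0.00226). The secreted protease inhibitor gene Slpi fell from 224 and 186 to 97.0 and 113 RPKM. The joining-chain gene Igj, at 2326 and 2234 then 1918 and 2156 RPKM, was not called.

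Several surface genes typical of plasma cells rose, while other genes of the same list fell. Sdc1, which encodes the CD138 that the sort selected against, was at 3.01 and 2.57 RPKM with DMSO and at 7.27 and 8.75 with GSK343 (1.25 ± 0.14, adjusted p = 0.000139). Cd28, a costimulatory receptor of long-lived plasma cells, rose from 1.24 and 1.17 to 6.39 and 7.23 RPKM (1.82 ± 0.13). The mucosal homing receptor gene Ccr10 rose from 2.80 and 2.20 to 8.12 and 9.09 RPKM. Tnfrsf17, the survival receptor BCMA, went from 1.23 and 1.56 to 3.46 and 3.40 RPKM, and Cxcr4, which retains plasma cells in bone marrow, from 166 and 147 to 244 and 265 RPKM. Itgb7 and Cd93 were also called higher. Called lower, besides Irf4 and Slpi, were Ly6a (592 and 438 RPKM, then 390 and 328) and Lax1 (204 and 182, then 151 and 141). In all, 10 of 29 genes of this list were called higher and 5 lower, where 12.7% and 5.86% of all genes were. Without GSK343 replicate 2 these counts were 7 and 2.

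Of 27 transcription factors of the B cell program, 8 were called higher and 3 lower, where 12.7% and 5.86% of all genes were, and rises outnumbered falls across all genes too. Spib, an ETS factor that restrains plasma cell formation, rose from 7.02 and 7.01 RPKM to 29.1 and 25.1 (1.81 ± 0.11, adjusted p = 2.7e-06). Klf2, a factor of quiescence and trafficking, rose from 7.22 and 7.02 to 27.7 and 23.0 RPKM. Bach2, the repressor that opposes Prdm1, rose from 2.62 and 2.87 to 6.01 and 4.86 RPKM (0.78 ± 0.14). The growth regulator Myc, which Blimp1 is known to repress, rose from 15.3 and 16.2 to 43.6 and 37.3 RPKM, and Myb from 6.98 and 6.67 to 19.0 and 18.7 RPKM. In all 5 genes the lowest GSK343 library was above the highest DMSO library, as in every gene called higher.

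Other defining B cell factors were not called. Pax5 was at 4.70 and 6.36 RPKM with DMSO and at 4.98 and 4.33 with GSK343, Ebf1 at 11.6 and 14.7 then 10.9 and 12.7, and Bcl6 at 2.73 and 2.83 then 3.86 and 3.48. The 3 factors called lower were Tcf3 (-0.51), Ikzf3 (-0.43) and Sfpi1 (-0.38), and none of the 3 was called without GSK343 replicate 2 (-0.33, -0.38 and -0.38), nor Sfpi1 without GSK343 replicate 1 (-0.38). Batf, an AP-1 factor needed for class switching, rose from 111 and 114 to 211 and 224 RPKM (0.94 ± 0.08).

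Signalling and cytokine genes held the chemokines described above. Of 23 genes of NF-kB signalling and cytokines, 9 were called higher and 3 lower, where 12.7% and 5.86% of all genes were, and Tgfb3 among the 9 passed the filter only through the GSK343 libraries. Besides the Ccl genes, Nfkbiz, a nuclear coactivator of NF-kB, rose from 25.3 and 23.1 to 40.3 and 42.7 RPKM, and the activation antigen Cd69 from 84.1 and 81.4 to 130 and 142 RPKM. Vegfa, an angiogenic factor, fell from 38.5 and 42.1 to 22.8 and 22.7 RPKM (-0.80 ± 0.09). The count called lower was 1 without GSK343 replicate 2.

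The immediate early genes were split by member. The transcription factor gene Egr2 rose from 6.63 and 6.53 to 13.6 and 17.0 RPKM, Egr3 from 2.11 and 1.53 to 5.32 and 6.91, and Nr4a1 from 1.24 and 1.24 to 3.35 and 4.43. Their relative Egr1 did not pass the test (-0.29 ± 0.11, adjusted p = 0.0849), and Junb (-0.29) and the mRNA decay factor gene Zfp36 (-0.46) were called lower. Neither was called without GSK343 replicate 2 (-0.36 and -0.38), nor Junb without GSK343 replicate 1 (-0.22). The list fixed for these genes also holds heat shock genes. In all, 6 of its 20 tested genes were called higher and 2 lower, where 12.7% and 5.86% of all genes were. The latter count was 5 without DMSO replicate 2, 1 without GSK343 replicate 1 and 0 without GSK343 replicate 2.

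Interferon response genes were split by member. The membrane protein gene Ifitm3 rose from 13.9 and 12.0 RPKM to 31.8 and 25.7 (1.09 ± 0.12) and Ly6e from 1108 and 1081 to 1815 and 1614. Irf7, the inducer of type I interferon, fell from 50.4 and 46.4 to 32.9 and 26.7 RPKM, and the exonuclease gene Isg20 from 367 and 338 to 226 and 232 RPKM. Of 27 tested, 8 were called higher and 3 lower, where 12.7% and 5.86% of all genes were, and Ifit1 and Rsad2 among the 8 passed the filter only through the GSK343 libraries.

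Of 28 homing and adhesion genes, 11 were called higher and 2 lower, where 12.7% and 5.86% of all genes were. Cxcr3, among those called lower, was at 1.19 and 1.07 RPKM with DMSO and at 0.237 and 0.574 with GSK343. It passed the filter only through the DMSO libraries, so its call supports no direction. Ccr7, the receptor that draws B cells to T cell zones, rose from 5.32 and 5.95 RPKM to 16.6 and 16.4 (adjusted p = 1.56e-05), and the gut-homing receptor gene Ccr9 from 28.1 and 19.9 to 60.9 and 57.8. The laminin-binding integrin gene Itga6 went from 3.72 and 3.36 to 9.03 and 7.01 RPKM, and the hyaluronan receptor gene Cd44 from 91.1 and 83.6 to 184 and 156. The count called higher was 6 without GSK343 replicate 1, 6 without GSK343 replicate 2 and 7 without DMSO replicate 2, and the count called lower was 0 and 1 without the GSK343 libraries in turn.

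Genes of cell death were called in both directions, and most cell cycle genes were not called. Bcl2l11, which encodes the killer protein BIM, rose from 19.4 and 16.3 RPKM to 49.7 and 54.9 (adjusted p = 6.19e-06), while the death agonist gene Bid fell from 29.7 and 31.0 to 21.4 and 20.9. Of 24 genes of the p53 response and the BCL2 family, 5 were called higher and 2 lower, or 3 and 1 with either GSK343 library left out and 6 and 4 without DMSO replicate 1. Over all genes, 12.7% were called higher and 5.86% lower. Cdk6, a G1 kinase, rose from 5.52 and 5.74 to 11.9 and 13.5 RPKM, while its partner cyclin gene Ccnd2 fell from 198 and 229 to 155 and 155. Of 40 cell cycle genes, 1 was called higher and 5 lower, and the latter count was 1 with either GSK343 library left out, 2 without DMSO replicate 2 and 9 without DMSO replicate 1.

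The Cdkn2a locus, a textbook PRC2 target that is derepressed when EZH2 is lost in several cell types, was not higher. Its values were 102 and 157 RPKM with DMSO and 86.1 and 90.1 with GSK343, a call of lower (-0.52 ± 0.15, adjusted p = 0.0386). That call was lost without DMSO replicate 2 (-0.21), GSK343 replicate 1 (-0.49) or GSK343 replicate 2 (-0.55). Cdkn1a, the p21 gene, was called higher, from 33.0 and 41.5 to 48.7 and 56.4 RPKM (0.49 ± 0.12, adjusted p = 0.0136), but not without GSK343 replicate 2 (0.39).

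Of the B cell receptor, antigen presentation and lipid synthesis genes, 8 of 31, 4 of 17 and 5 of 25 passed the test in either direction, where 18.6% of all genes did. Cd83, which stabilizes MHC class II at the surface, rose from 54.5 and 63.2 RPKM to 113 and 119 (0.97 ± 0.09). The adaptor gene Pik3ap1 rose from 24.2 and 24.6 to 43.4 and 36.1 RPKM. Fcer2a, which encodes CD23, was at 1.64 and 1.97 RPKM with DMSO and at 0.744 and 0.656 with GSK343. It is among the 8 of 31, but passed the filter only through the DMSO libraries, so its call supports no direction. These counts were 6, 1 and 2 without GSK343 replicate 1, and 4, 2 and 0 without GSK343 replicate 2.

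**Figure D4:**
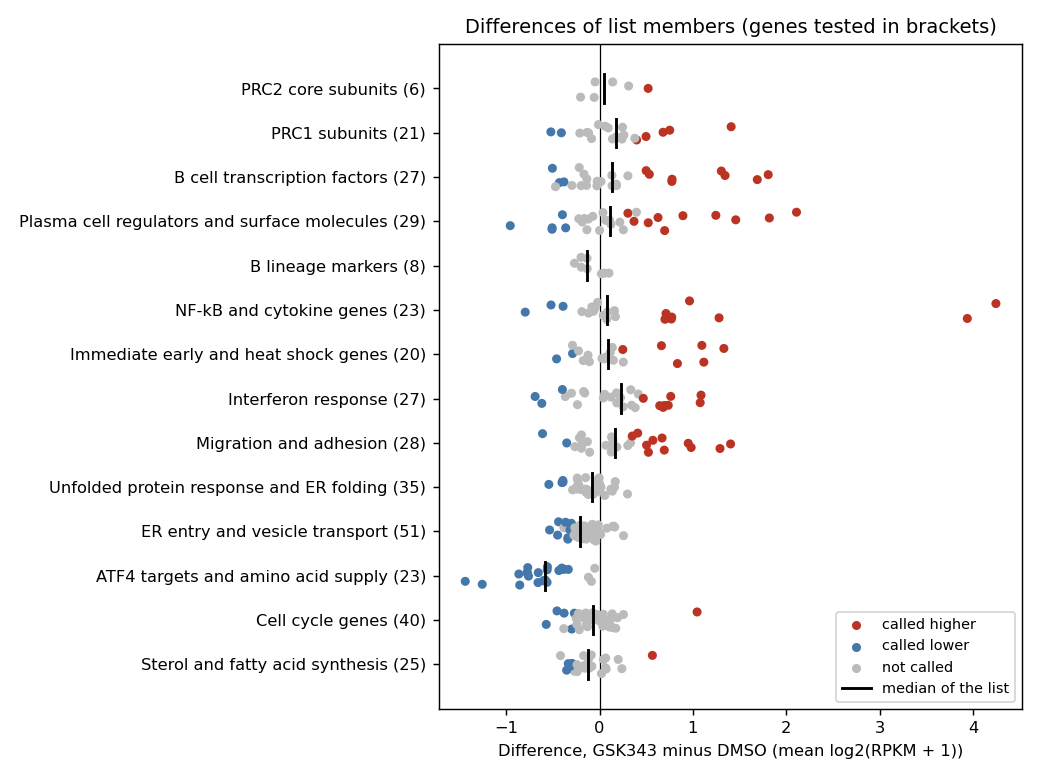
Differences between GSK343 and DMSO on the log2(RPKM + 1) scale (horizontal axis) for each tested gene of a selection of the fixed lists (1 row a list). Points are coloured by call, and the median of each list and a line at 0 are marked. The 23 genes of ATF4 targets and amino acid supply all lie left of 0, with a median of -0.58, whereas most other lists are spread over both sides.

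The inhibitor response was then set beside gene groups defined in 8 other libraries of the study, normalized separately by the authors for GC content, which share no sample with the 4 above. Of genotype Blimp1(GFP/+) Cd23(Cre/+) were plasmablasts (CD138+ GFP+), activated B cells (CD138- GFP-) and the control pre-plasmablasts (CD138- GFP+). The others were Blimp1-deficient pre-plasmablasts, Blimp1(GFP/fl) Cd23(Cre/+). Cre under Cd23 control deletes in mature B cells. The deficient cells were also gated as CD22hi, so genotype and gate cannot be told apart. Groups were formed by limma at an adjusted p below 0.05 and 2-fold or more: 732 of 10473 genes (6.99%) were higher and 594 (5.67%) lower in Blimp1-deficient than control cells.

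Genes higher without Blimp1 were called higher with GSK343 at a larger share than all genes. Of the 510 tested genes that were higher in Blimp1-deficient cells, 199 (39.0%) were called higher with GSK343 and 22 (4.31%) lower, with a median of 0.28. Over the 9285 genes tested in both, the shares were 12.2% and 5.87% and the median 0.01. Restricting both to genes at 1 RPKM or more in a DMSO library gave 35.6% against 11.3%. The median DMSO level of the 510 genes was 6.12 RPKM against 11.5 over all genes, and the part of level in these shares was not tested. The 199 genes were 17.6% of all 1133 called higher, so most genes that rose with the inhibitor were not in this group. Spib, Itgb7, the actin-severing gene Gsn (2.83 and 3.12 RPKM, then 13.6 and 13.2) and Ifitm2 belong to it. Bank1 and the interferon regulatory factor gene Irf5 (68.0 and 66.2 RPKM, then 44.4 and 40.7) are members that fell.

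The 557 genes lower in Blimp1-deficient cells divided: 103 (18.5%) were called higher and 125 (22.4%) lower with GSK343, with a median of -0.09. Both shares were above those of all genes. Their median DMSO level was 32.4 RPKM against 11.5 over all genes, and the part of expression level in these shares was not tested.

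Groups from normal differentiation gave a like picture. In control cells, 896 genes (8.56%) were higher and 864 (8.25%) lower in pre-plasmablasts than in activated B cells. Of the 658 tested genes that fall on this step, 193 (29.3%) were called higher with GSK343 and 31 (4.71%) lower, with a median of 0.17. Among those at 1 RPKM or more in a DMSO library the share called higher was 25.3%, against 11.3% of all such genes, and the median 0.15. The median DMSO level of the 658 genes was 6.91 RPKM, and the part of level was not tested here either. Of the 823 that rise, 169 (20.5%) were called higher and 143 (17.4%) lower, with a median of -0.03. The comparisons that form the groups share the control pre-plasmablast libraries, so the groups are not independent of each other.

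**Figure D5:**
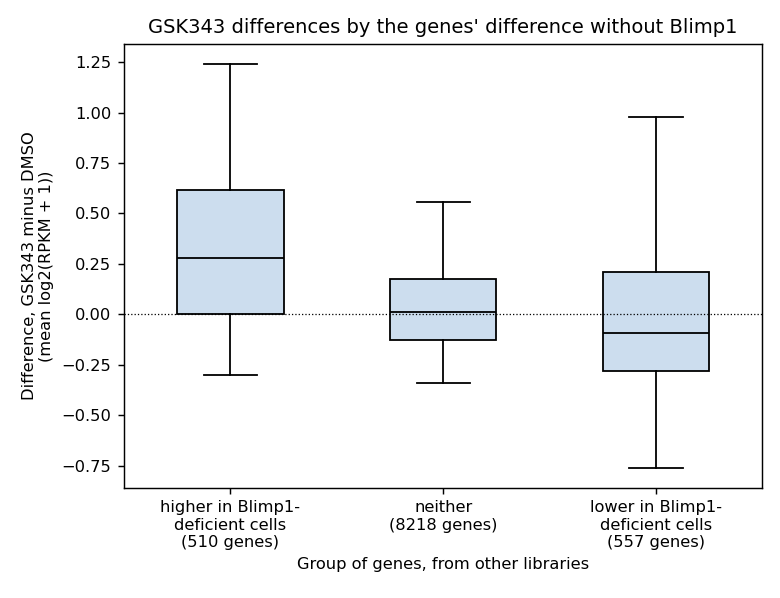
Difference between GSK343 and DMSO on the log2(RPKM + 1) scale (vertical axis) for genes grouped by the 8 GC-normalized libraries: boxes span the quartiles with the median as a line, whiskers the 5th to 95th percentile. The box of genes higher in Blimp1-deficient cells sits highest, with a median of 0.28, and that of genes lower there straddles 0.

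Called genes lay next to each other along the chromosomes in places, by RefSeq gene order among the 9226 genes placed. Of the 1182 placed genes called higher, 386 (32.7%) had a called-higher gene beside them, against 22.3% of the other genes. Of 545 called lower, 104 (19.1%) had a called-lower neighbour, against 10.9%. Neighbours that rose strongly included Ccl3 with Ccl4, Tmem176b with Tmem176a, and Fxyd6 with Fxyd2 (2.43 and 2.01). Wnt16 and its neighbour Fam3c rose by 1.37 and 1.26, and the Ifitm1, Ifitm2 and Ifitm3 genes by 1.22, 1.76 and 1.09. Neighbours that are paralogs or overlap can share reads, and the part of this in the counts was not tested. The genes called higher counted here include some that passed the filter only through the GSK343 libraries, such as Wnt16 and Ifitm1. Their part in the counts was not tested either.

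MicroRNA genes appear in these files as hairpin entries, so their values measure RNA over the hairpin, not the mature microRNA. Of 8 such entries tested, 3 were called higher and none lower, where 12.7% and 5.86% of all genes were. The mature 5p forms are shown with the seed, bases 2 to 8, in capitals (RefSeq, GRCm38.p6), and the 3 seeds differ. The entry for mir-146a, a feedback inhibitor of NF-kB signalling, was listed at 0 in both DMSO libraries and at 1.15 and 2.80 RPKM with GSK343. It passed the filter only through the GSK343 libraries, so its call supports no direction. The mir-425 entry went from 4.47 and 3.16 to 16.8 and 8.59 RPKM (1.46 ± 0.24, adjusted p = 0.00182), a call lost with robust variance estimates. Beside it on chromosome 9, the mir-191 entry went from 0 and 1.21 to 2.03 and 2.46 RPKM (adjusted p = 0.0187), and its call was lost with either GSK343 library left out (1.22 and 1.03).
mmu-miR-146a-5p: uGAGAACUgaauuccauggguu
mmu-miR-425-5p: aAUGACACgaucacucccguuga
mmu-miR-191-5p: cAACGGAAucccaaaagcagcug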

How the data were processed

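Poly(A) RNA of the sorted cells was sequenced as 50-base reads, per the labels. The authors deposited RPKM per gene name, and the submitters' processing notes name TopHat 1.4.1, HTSeq 0.5.3, DESeq 1.8.3 and mm9, without their roles. The 4 inhibitor libraries hold plain RPKM, and the 8 libraries used to group genes hold RPKM that the authors had normalized for GC content. Strand use in counting is not given in the sources used here. RPKM is not a count, so limma 3.58.1 (R 4.3.3, Python 3.11.15 for tables) was fitted to log2(RPKM + 1), with a mean-variance trend and Benjamini-Hochberg adjustment over genes at 1 RPKM or more in 2 libraries. The script was tested on simulated data. Of 21025 entries, 375 with repeated names were dropped. A difference of 1 (log2) without overlap was also counted.

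Genes are named as the 15 largest rises and 15 largest falls among called genes, the called members of fixed lists, genes fixed by name, and called genes of the Blimp1 groups. Single genes brought in as neighbours, or to show members that did not pass, were chosen after their values were seen. Members and lists were chosen with earlier results of these data known. A CpG comparison of promoters is void, since 7502 of 9479 genes (79.1%) had a promoter sequence and 80% was needed. Alternatives were other pseudocounts (0.1, 0.5), no filter or 5 RPKM, median-of-ratios or quantile scaling, no trend, robust variance, and leaving out each library. Results for a few genes, and the count of PRC1 genes called lower, are not reported here. Groups have 2 libraries each, which limits precision.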

Additional observations from a re-analysis of the deposited data

How the results depend on the processing

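Every called gene kept its direction in each of the 12 alternatives that tested it, but the number called depended on the libraries. With each library left out in turn, the total ran from 876 to 1951 against 1763, the genes called higher from 659 to 1222 against 1208, and those called lower from 194 to 729 against 555. The totals without GSK343 replicate 1 and without GSK343 replicate 2 were 914 and 876. A 5 RPKM filter gave 779 higher. Genes called lower numbered 291 with no filter and 855 with median-of-ratios scaling. Genes 2-fold apart without overlap were 425 with a pseudocount of 0.1 and 148 with the 5 RPKM filter, against 237. The lone library of a reduced group was assumed to vary like the others. The 233 genes followed singly included some, such as Eed and Suz12, that were not called to begin with. Many of the others lost their call when a GSK343 library was left out. The cause was not tested. No paired analysis was possible because the labels give no replicate numbers, and those used here only name the libraries in deposit order.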

Other observations

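Among the most abundant transcripts, a few moved by 2-fold or nearly so, and they belong to none of the lists above (chosen after their values were seen). Ly6d, a surface protein of the B lineage, was at 6467 and 5252 RPKM with DMSO and at 14491 and 15646 with GSK343 (1.37 ± 0.13, limma adjusted p = 6.22e-05). Plac8 rose from 968 and 918 to 2604 and 2674 RPKM (1.48 ± 0.09), and Sepw1, a small selenoprotein, from 439 and 400 to 854 and 903 RPKM. The survival kinase gene Pim2 rose from 307 and 297 to 503 and 523 RPKM. Tmed6, of the p24 family of cargo receptors between endoplasmic reticulum and Golgi, fell from 1556 and 1307 to 769 and 830 RPKM (-0.84 ± 0.10). In these 5 genes, as in every called gene, the libraries of the treatments did not overlap. Ly6d lies beside Lynx1, which also rose (1.27).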
